A study of Homo sapiens with 3 samples.

Results

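Of the 9 genes of the MAP kinase phosphatase family examined (DUSP1, DUSP2, DUSP4 to DUSP10), 6 were expressed above background in stratified cultures of iHCE, a line of human corneal epithelial cells immortalized with SV40. These were *DUSP1*, *DUSP2*, *DUSP4*, *DUSP5*, *DUSP6* and *DUSP7*. The genes *DUSP8*, *DUSP9* and *DUSP10* were not above background on any array. The members were chosen by symbol, taking every probe set of the deposited table that names 1 of these 9 genes and no other gene. This gave 15 of the 19071 probe sets with a single gene, and 9 of 11963 genes.

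The iHCE cells express the large T antigen of the virus. They were first submerged on filters coated with collagen and then kept at an air-liquid interface, in medium with serum, insulin, cholera toxin and EGF. RNA from 3 independent culture batches, here cultures 1, 2 and 3, was hybridized to HG-U133A arrays, 1 array per culture. The electrical resistance was 489, 439 and 468 Ω · cm2 in cultures 1, 2 and 3. All arrays belong to this 1 group, so no condition was compared with another, and the cells are those of a single immortalized line. Values are RMA log2 expression values. Since affinity differs between probe sets, the values do not rank the genes by amount of transcript.

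Dual specificity phosphatases of MAP kinases remove phosphate from both the threonine and the tyrosine of the activation loop of ERK, JNK and p38, and so switch these kinases off. Many of their genes are themselves induced by the kinase signal and form a negative feedback. *DUSP1*, *DUSP2*, *DUSP4* and *DUSP5* encode inducible nuclear enzymes, *DUSP6*, *DUSP7* and *DUSP9* encode cytoplasmic enzymes that prefer ERK, and *DUSP8* and *DUSP10* encode enzymes that prefer JNK and p38. Growth factors such as EGF activate ERK in corneal epithelial cells, which respond to it during wound healing.

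The call above background required that the brightest probe set of a gene exceed, on every array, the value that 95% of a panel of 62 measured genes of other tissues (for example liver, muscle and retina) stayed under. These thresholds were 7.03, 6.89 and 7.08 in cultures 1, 2 and 3. Of the 9 phosphatase genes 6 were above background, against 46.0% of all genes. By probe set, 7 of 15 were above background, while 37.6% of all probe sets with 1 gene were. With 9 genes these shares were not tested against each other. The median level of the 9 genes was 7.76, and that of all genes 6.98. By role, 4 of the 4 nuclear inducible genes, 2 of the 3 cytoplasmic ERK-selective genes and 0 of the 2 JNK- and p38-selective genes were above background.

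**Figure D1:**
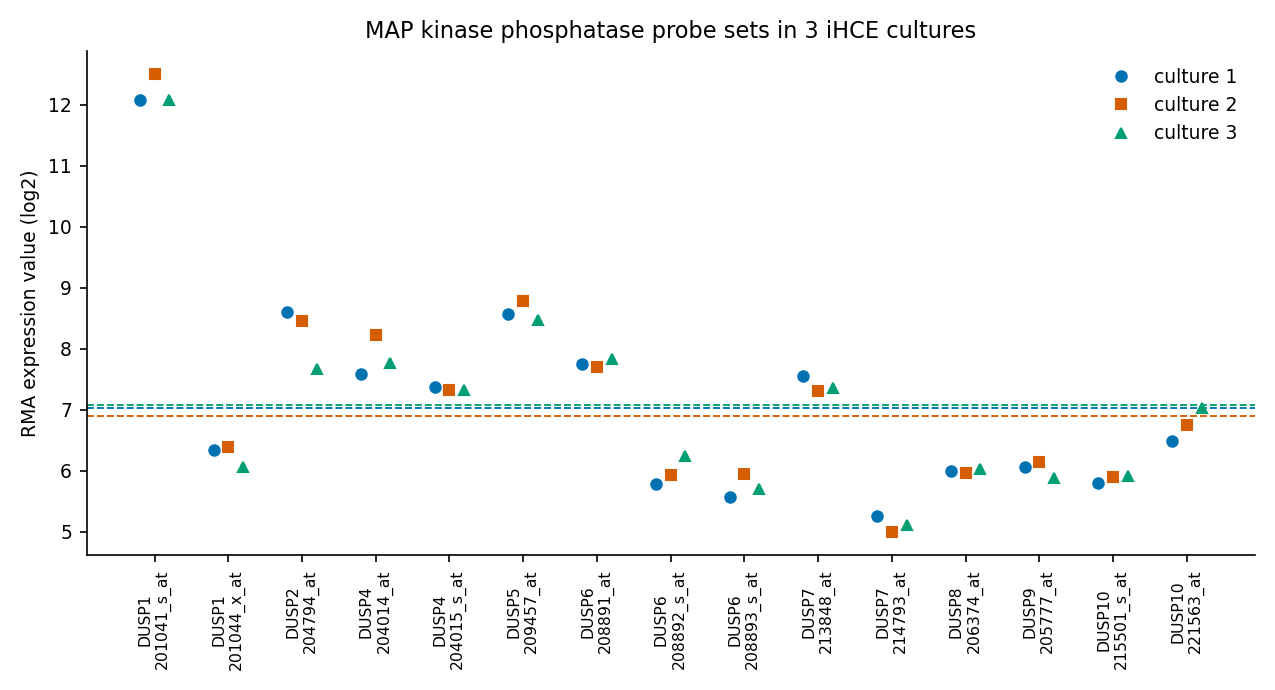
RMA log2 expression value (vertical axis) of each of the 15 probe sets of the MAP kinase phosphatase genes in cultures 1, 2 and 3 (points). Dashed lines mark the background threshold of each array. *DUSP1* has 1 probe set near 12 and 1 under the lines, and those of *DUSP8*, *DUSP9* and *DUSP10* lie under the lines.

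The 3 arrays were similar, with the array of culture 1 somewhat apart. Culture 1 correlated with cultures 2 and 3 at Pearson's r of 0.988 and 0.987, and the last pair at 0.994, over probe sets that are no independent replicates. Among genes above background, 56 and 46 differed by 1 or more on the log2 scale between culture 1 and cultures 2 and 3, while 4 differed that far between cultures 2 and 3. No phosphatase gene changed its call when culture 1, 2 or 3 was left out, and none could. Each array has its own threshold, and every phosphatase gene was above it on all arrays or on none. The 3′ minus 5′ difference of the *ACTB* control probe sets, a measure of RNA integrity and labeling, was 2.99, 3.25 and 3.0 in cultures 1, 2 and 3. That of *GAPDH* was 1.64, 1.34 and 1.28. For both controls the 3′ probe set thus read higher than the 5′ one on every array. The part of this in probe sets under the threshold, and in probe sets of 1 gene that differ, was not tested. The poly-A control probe sets had medians of 5.34, 6.59 and 6.63 in cultures 1, 2 and 3, each under the threshold of its array. Of the 27, 24 were lowest in culture 1, and their part in the phosphatase values was not tested. Of 6 markers of simple epithelium 6 were above background, among them *KRT18*, *KRT19* and *CDH1*. The corneal keratin genes *KRT3* and *KRT12* were above background on no array, and the eye transcription factor gene *PAX6* on 1 of the 3, so none of these corneal markers was called above background. Of 23 measured markers of keratocytes, immune cells, endothelium and melanocytes, 1 was above background, the endothelial receptor gene *TEK*.

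The proximal promoters of the 4 genes that the values below turn on are shown here with the cAMP response element and the E-box. *DUSP1* had the brightest probe set and *DUSP8* shares its full cAMP element. *DUSP2* varied most between cultures, and *DUSP6* least among the genes above background. Sequences are from RefSeq, build GRCh38.p14, each gene on the minus strand and each printed 5′ to 3′ from 250 bases before to 50 bases after the start of the gene. Of the 9 genes 7 had an entry in the promoter table; *DUSP4* and *DUSP5* were the others. Capitals mark the short cAMP response element TGACG and the E-box CACGTG, searched on both strands. The full element TGACGTCA holds the short one on each strand.
DUSP1 (chr5:172771146-172771445): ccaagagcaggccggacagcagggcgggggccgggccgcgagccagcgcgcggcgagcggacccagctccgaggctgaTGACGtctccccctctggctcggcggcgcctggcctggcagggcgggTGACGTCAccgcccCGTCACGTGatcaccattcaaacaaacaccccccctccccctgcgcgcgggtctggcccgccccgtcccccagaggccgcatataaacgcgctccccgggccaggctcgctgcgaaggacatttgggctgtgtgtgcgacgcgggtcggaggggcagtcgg
DUSP8 (chr11:1572222-1572521): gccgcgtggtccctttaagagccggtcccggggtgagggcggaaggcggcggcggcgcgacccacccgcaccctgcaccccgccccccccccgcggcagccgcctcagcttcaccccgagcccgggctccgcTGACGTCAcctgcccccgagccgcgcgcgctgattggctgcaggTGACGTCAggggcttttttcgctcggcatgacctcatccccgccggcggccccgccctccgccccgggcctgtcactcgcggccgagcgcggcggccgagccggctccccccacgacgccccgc
DUSP2 (chr2:96145391-96145690): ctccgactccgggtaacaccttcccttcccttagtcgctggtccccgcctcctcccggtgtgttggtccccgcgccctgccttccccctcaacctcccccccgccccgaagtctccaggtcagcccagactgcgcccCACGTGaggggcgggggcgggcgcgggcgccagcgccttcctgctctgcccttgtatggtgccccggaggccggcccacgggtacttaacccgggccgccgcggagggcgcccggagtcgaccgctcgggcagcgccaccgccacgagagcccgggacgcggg
DUSP6 (chr12:89352452-89352751): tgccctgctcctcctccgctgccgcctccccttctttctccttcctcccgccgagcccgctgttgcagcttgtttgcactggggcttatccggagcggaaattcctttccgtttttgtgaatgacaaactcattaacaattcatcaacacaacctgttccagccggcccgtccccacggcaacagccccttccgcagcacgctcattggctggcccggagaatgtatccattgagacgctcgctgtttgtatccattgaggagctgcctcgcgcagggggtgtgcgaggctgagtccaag

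Positions are counted from the start of the gene, with -1 the base before it. In the *DUSP1* promoter the full element TGACGTCA began at -125, further short elements at -172 and -111, and the E-box at -108, where it overlaps the last short element. In the *DUSP8* promoter the full element was found at -118 and at -74. A window of *DUSP10*, not printed here, held a short element at -4. The full element was present in 1.85% of 35116 promoters of this length and the short element in 24.6%. The E-box, which was also found at -113 in the *DUSP2* promoter, was present in 7.26%. The *DUSP6* window held neither motif. The *DUSP2* window also held the EGR motif GCGGGGGCG at -103, present in 5.07% of promoters. The AP-1 motif TGACTCA, present in 4.95% of promoters, and the CArG box, present in 1.29%, were found in no window of the 7 genes. The TATA box TATAAA, present in 11.5% of promoters, was found at -30 in *DUSP1* alone of the 7. A match of letters is a description of the window. *DUSP1* and *DUSP8*, which share the full element, were on opposite sides of the background threshold at their brightest probe sets. The part of these motifs in the values was not tested.

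Among the nuclear inducible phosphatases, *DUSP1* was far above background. *DUSP1* encodes an immediate early phosphatase of JNK, p38 and ERK. Its probe set 201041_s_at read 12.07, 12.51 and 12.08 in cultures 1, 2 and 3 (12.22 ± 0.25, mean ± SD, n = 3). This exceeded 98.9% of all probe sets, and lay 5.22 above the threshold on average. Cultures 1 and 3 were nearly equal and culture 2 was higher than both, by 0.44 on the log2 scale. The other probe set, 201044_x_at, read 6.35, 6.39 and 6.06 and was above background on no array. Its suffix marks probes that can bind other transcripts, and the suffix of 201041_s_at marks probes shared by several transcripts, so the level of *DUSP1* rests on 1 such probe set.

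*DUSP5* encodes a nuclear phosphatase selective for ERK. Its only probe set, 209457_at, read 8.57, 8.79 and 8.47 in cultures 1, 2 and 3 (8.61 ± 0.16, SD, n = 3), and exceeded 82.4% of all probe sets. Each array was at least 1.39 above its threshold. Culture 2 was the highest of the 3, as for *DUSP1*, but the whole range was 0.32, and 42.0% of all genes above background had a range as large. *DUSP1* and *DUSP5* were the members that kept their call with the strictest threshold, described below.

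*DUSP4*, another nuclear phosphatase of ERK and JNK, had 2 probe sets above background. The brighter one, 204014_at, read 7.59, 8.23 and 7.76 in cultures 1, 2 and 3 (7.86 ± 0.33, SD, n = 3), again with culture 2 the highest. The other one, 204015_s_at, read 7.38, 7.33 and 7.33 (7.35 ± 0.03), with nearly equal values. The probe sets of *DUSP4* therefore shared the call but not the pattern over the cultures, and the excess in culture 2 was seen in 1 of them.

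*DUSP2* encodes a nuclear phosphatase best known from activated lymphocytes. Its probe set 204794_at read 8.61, 8.46 and 7.67 in cultures 1, 2 and 3 (8.24 ± 0.50, SD, n = 3). Cultures 1 and 2 were close and culture 3 was lower, by 0.94 relative to culture 1, which is a 1.92-fold difference. Whether fewer cells expressed it or each held less RNA cannot be told apart in RNA of a whole culture. Only 1.85% of all genes above background had a range as large. Without culture 3 the SD of *DUSP2* was 0.11. None of 8 measured immune cell markers was above background, the brightest being *CD14* at 6.92, 6.82 and 6.86. The leukocyte gene *PTPRC* had a level of 5.12 ± 0.09 (SD, n = 3). Their part in the value of culture 3 was not tested.

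Of the cytoplasmic ERK-selective phosphatases, *DUSP6* and *DUSP7* were above background, each at 1 probe set. *DUSP6* encodes the feedback phosphatase of ERK that acts downstream of FGF and EGF receptors. Its probe set 208891_at read 7.76, 7.69 and 7.83 in cultures 1, 2 and 3 (7.76 ± 0.07, SD, n = 3). This was the steadiest of the phosphatase genes above background, and 84.4% of all genes above background had a range as large. Culture 3 was highest as deposited, and culture 1 after quantile normalization, so the order of the cultures depends on the scaling. Its other probe sets were under the threshold on every array. Probe set 208892_s_at read 5.79, 5.93 and 6.25, and 208893_s_at read 5.57, 5.95 and 5.70.

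*DUSP7*, a close relative of *DUSP6*, was nearest to the threshold among the genes called. Its probe set 213848_at read 7.56, 7.31 and 7.37 in cultures 1, 2 and 3 (7.41 ± 0.13, SD, n = 3), at least 0.29 above the threshold of each array. The other probe set, 214793_at, read 5.25, 5.00 and 5.11 and was among the dimmest of the family, exceeding 24.3% of all probe sets. *DUSP9*, the third cytoplasmic ERK-selective gene, read 6.05, 6.15 and 5.89 (6.03 ± 0.13) at 205777_at, its only probe set, and was not above background on any array.

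The genes of the phosphatases that prefer JNK and p38 were not above background, except that *DUSP10* was when _x_at and _s_at probe sets were left out, which lowered the thresholds to 6.47, 6.36 and 6.40 in cultures 1, 2 and 3. *DUSP8* read 6.0, 5.97 and 6.03 in cultures 1, 2 and 3 at 206374_at (6.0 ± 0.03, SD, n = 3), and on each array at least 0.93 under the threshold. *DUSP10* was the gene nearest to the threshold on the other side. Its probe set 221563_at read 6.50, 6.74 and 7.02 (6.75 ± 0.26), with culture 3 the highest and 0.06 under its threshold. The second probe set, 215501_s_at, read 5.80, 5.89 and 5.92. RMA compresses low values toward background, so these readings do not show that the transcripts were absent.

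A limma fit over all 11963 genes, testing one-sidedly whether the mean exceeded the threshold, with Benjamini-Hochberg adjustment, called the same 6 genes. The adjusted p was 9.6e-61 for *DUSP1*, 1.2e-20 for *DUSP5* and 0.0028 for *DUSP7*, and 8e-14, 1.2e-08 and 1.2e-07 for *DUSP2*, *DUSP4* and *DUSP6* (limma, n = 3 arrays). The mean of *DUSP7* was 0.41 ± 0.13 above the threshold (SE) and that of *DUSP10* -0.25 ± 0.13. The test takes the thresholds as fixed, although they come from the same arrays. It also draws the variance of each gene toward that of all genes of like level. The SE of *DUSP2* in the fit was 0.14, while its SD over the cultures was 0.50 (n = 3). These p-values therefore do not rest on the spread between the 3 cultures alone. With the panel median plus 3 scaled MADs as threshold only *DUSP1* and *DUSP5* were above background, and with the probe sets of each gene averaged *DUSP6* and *DUSP7* were not. Of all 11963 genes, 3465 were above background with the scaled MADs and 5826 with the averaged probe sets.

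The phosphatase genes above background varied between cultures by a median range of 0.38 on the log2 scale, while that of all genes above background was 0.28. Of the 6 genes, *DUSP1*, *DUSP4* and *DUSP5* were highest in culture 2, and 28.0% of all genes above background were highest in that culture. *DUSP2* and *DUSP7* were highest in culture 1. With 1 array per culture no difference between cultures can be tested. The difference between the *ACTB* 3′ and 5′ control probe sets was also highest in culture 2 and that of *GAPDH* was not, and their part in the values of *DUSP1*, *DUSP4* and *DUSP5* was not tested.

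**Figure D2:**
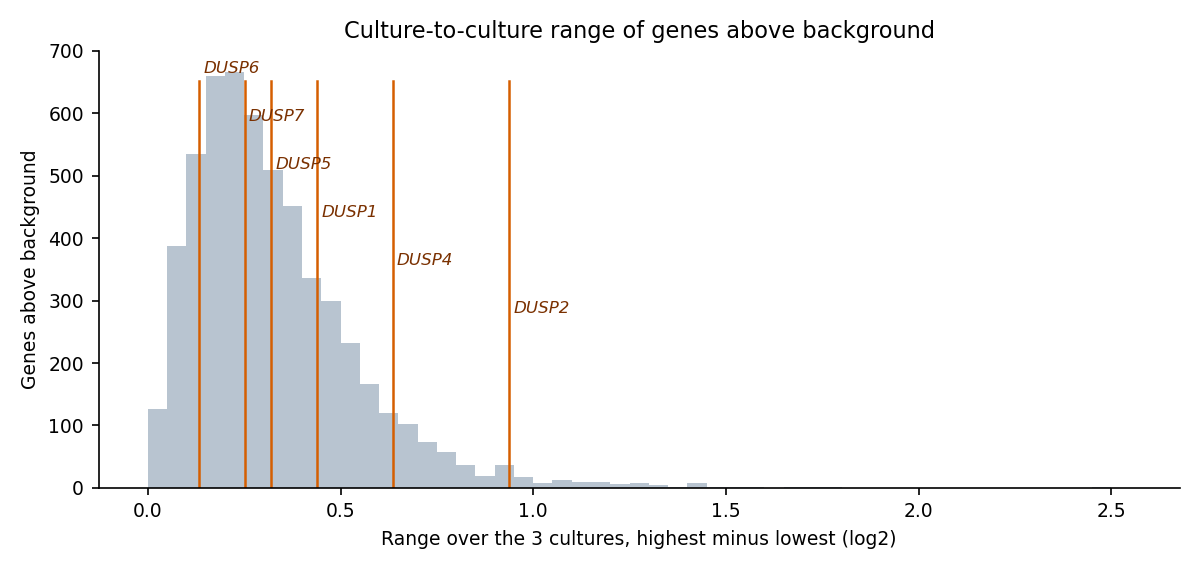
Number of genes above background (vertical axis) by their range over the 3 cultures, highest minus lowest, on the log2 scale (horizontal axis). Lines mark the 6 phosphatase genes above background, from *DUSP6* at 0.13 to *DUSP2* at 0.94.

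The immediate early genes did not share 1 pattern over the cultures either. Of 26 measured genes of ERK feedback and immediate early response, 18 were above background, against 46.0% of all genes. With the panel median plus 3 scaled MADs 10 of the 26 were. Of the 18 above the main threshold, 4 (*FOS*, *JUN*, *IER2* and *ZFP36*) were highest in culture 2, as were *DUSP1*, *DUSP4* and *DUSP5*. Of all genes above background, 28.0% were highest in culture 2, so the list held no excess of such genes. *FOS*, which encodes a subunit of AP-1, read 9.32, 10.42 and 8.86 in cultures 1, 2 and 3. *IER2* read 12.45, 12.87 and 12.44, with steps between cultures close to those of *DUSP1*. By contrast *EGR1*, an immediate early transcription factor gene, read 12.01, 11.76 and 11.53 and *JUNB* 8.76, 8.05 and 7.80, with culture 1 highest and culture 3 lowest, the order seen for *DUSP2*. *IER3* read 12.16, 12.31 and 12.73, with culture 3 highest. These patterns rest on 3 points each.

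**Figure D3:**
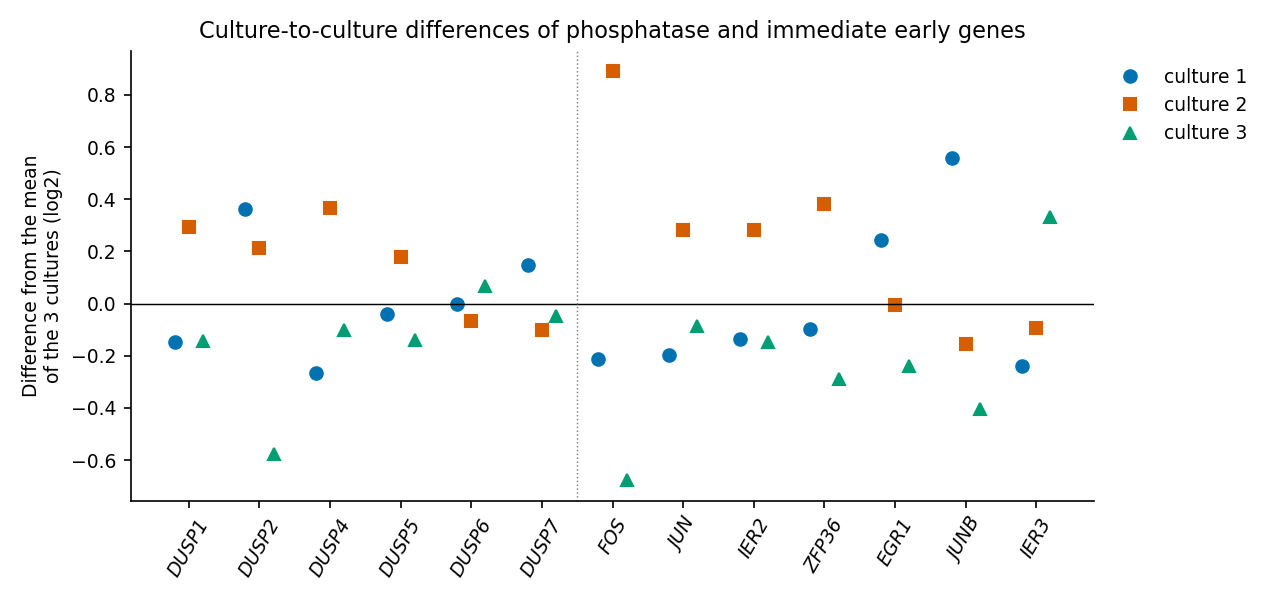
Difference of each culture from the mean of the 3 cultures on the log2 scale (vertical axis) for the 6 phosphatase genes above background (left of the dotted line) and 7 immediate early genes (right). The 7 are a choice from the 18 listed genes above background, and include each of the 4 that were highest in culture 2. *DUSP1*, *DUSP4*, *DUSP5*, *FOS*, *JUN*, *IER2* and *ZFP36* are highest in culture 2, and *DUSP2* is lowest in culture 3.

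Of 12 listed genes of MAP kinases, the family that holds the substrates of these phosphatases, 10 were measured and 5 were above background, a share close to the 46.0% of all genes. *MAPK3*, the gene of ERK1, had a level of 8.55 ± 0.13 and the JNK gene *MAPK9* 9.46 ± 0.32 (SD, n = 3). The p38 genes *MAPK13* and *MAPK11* had levels of 8.44 ± 0.27 and 7.39 ± 0.10, and the atypical kinase gene *MAPK6* 10.19 ± 0.22. The JNK genes *MAPK8* and *MAPK10*, the p38 gene *MAPK12* and the atypical kinase gene *MAPK4* were above background on no array, and *MAPK7*, the gene of ERK5, on 1 of the 3. *DUSP8* was under the threshold in every setting, and *DUSP10* was above background on all arrays only in the 1 named above. With the 90th percentile of the panel *DUSP10* exceeded the thresholds of cultures 2 and 3 (6.52 and 6.48). With the olfactory panel it exceeded that of culture 3 (6.69). A JNK gene and a pair of p38 genes were above background in the same 3 cultures with the main threshold. With the highest panel value (7.58, 7.46 and 7.41) *MAPK11* was under the threshold on each array. With the panel median plus 3 scaled MADs *MAPK11* was so too, and *MAPK13* was under it in culture 1 (8.14 against 8.20). Of the 10 measured MAP kinase genes, 4 were above background with the highest panel value and 3 with the scaled MADs.

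Upstream of ERK, the kinase that the products of *DUSP5*, *DUSP6* and *DUSP7* act on, 3 of 4 EGF receptor genes were above background. Of these 4, 1 was above background with the probe sets of a gene averaged, 1 with the panel median plus 3 scaled MADs, and 0 of 3 when _x_at and _s_at probe sets were left out. *EGFR*, the receptor of the EGF in the medium, had a level of 8.66 ± 0.16 (SD, n = 3), *ERBB3* 7.82 ± 0.13 and *ERBB2* 7.19 ± 0.03, while *ERBB4* at 4.92 ± 0.21 was not above background. Of 6 measured genes of Ras and Raf signaling 5 were above background, among them the adaptor gene *SHC1* at 10.23 ± 0.14, and 2 with the panel median plus 3 scaled MADs. Of 5 measured MAP kinase kinase genes 4 were above background, including the ERK activators *MAP2K1* (9.89 ± 0.30) and *MAP2K2* (8.79 ± 0.42). The p38 activator *MAP2K6* at 6.30 ± 0.34 was not. Of all genes 46.0% were above background. Among other feedback genes of the ERK pathway, the ETS factor genes *ETV4* and *ETV5* (7.68 ± 0.04 and 7.33 ± 0.11) were above background like *DUSP6*. The ETS factor gene *ETV1* (6.20 ± 0.11) was not. The receptor pathway inhibitors *SPRY1* and *SPRY2* (6.79 ± 0.14 and 6.81 ± 0.03) were not either. The inhibitor gene *SPRED2* (7.58 ± 0.08) was above background, and *SPRY4* (6.67 ± 0.42) exceeded the threshold in culture 1 alone. Neither the ETS factor genes nor the inhibitor genes thus shared a call.

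Of 10 measured genes of other related phosphatases 6 were above background. *DUSP14* had a level of 9.22 ± 0.26, *DUSP12* 8.54 ± 0.04 and *STYXL1*, which encodes a catalytically inactive relative of the family, 9.05 ± 0.12 (SD, n = 3). *DUSP3*, *DUSP11* and *DUSP22* made up the rest, and *DUSP21*, *DUSP26*, *PTPN7* and *PTPRR* were above background on no array. *DUSP16*, a further MAP kinase phosphatase, was not analysed here. Of 18 measured effectors of the MAP kinases 13 were above background. Of 7 cAMP target genes, listed because the medium held cholera toxin, 4 were, with *SIK1* at 9.69 ± 0.12 and *NR4A3* at 9.07, 7.90 and 8.17 in cultures 1, 2 and 3. Of 9 p53 target genes 5 were, with *CDKN1A* at 10.33 ± 0.08. Of all genes 46.0% were. With the panel median plus 3 scaled MADs these counts were 8 for the effectors, 2 for the cAMP targets and 3 for the p53 targets. The cAMP count was also 2 with the highest panel value and with probe sets averaged. Without _x_at and _s_at probe sets 8 of 13 effectors and 1 of 3 p53 targets were above background. Over these 9 lists together 63 of 95 genes were above background (66.3%), while 6 of the 9 MAP kinase phosphatases were. The lists were chosen for a pathway and none was tested against other genes.

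**Figure D4:**
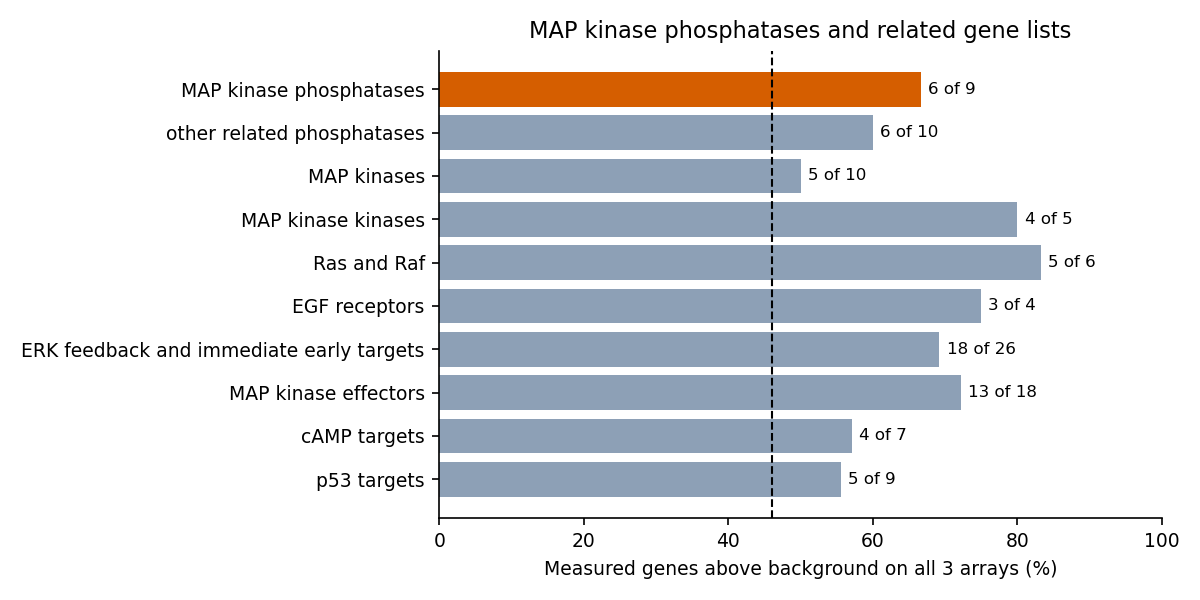
Share of the measured genes of each list that were above background on all 3 arrays, in percent (horizontal axis), with the counts beside the bars. The orange bar is the MAP kinase phosphatases, with 6 of 9, and the dashed line marks all genes (46.0%).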

How the data were processed

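RNA of 3 independent iHCE cultures was measured on HG-U133A arrays. The authors deposited log2 expression values made by RMA in R 2.8.0, per the labels and the methods, for 22283 probe sets of the manufacturer. RMA corrects background, normalizes between arrays and summarises probes. The methods describe a run over iHCE and tissue arrays together with a custom chip definition by Entrez gene, while the deposited table has the manufacturer's probe sets, so it differs in annotation from that run. The sources used here do not say whether tissue arrays entered the deposited run, and those arrays were not analysed here. The number of arrays limits the precision.

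Probe sets were named through the platform annotation, with symbols updated by Entrez number from the RefSeq table (GRCh38.p14). Of all probe sets 19071 had 1 symbol, 1043 several and 2169 none listed. A gene was read at its probe set of highest mean. Spread is the SD over cultures. The panel of other tissues had 70 genes, of which 62 were measured and 4 (*GRIN1*, *AQP2*, *SFTPC* and *SFTPB*) themselves exceeded the threshold on all arrays. Calls were repeated with limma 3.58.1 (R 4.3.3, trend, one-sided, adjusted p under 0.05), and both were also run on simulated data. There the threshold was fixed, and each gene not raised had a mean set apart from it on the lower side. The simulation therefore does not test calls close to the threshold, such as those of *DUSP7* and *DUSP10*. Other work used Python 3.11.15, pandas 2.3.3 and numpy 2.4.6.

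The alternatives were other thresholds (90th percentile, highest panel value, median plus 3 scaled MADs, a panel of 47 olfactory receptor genes), the mean over probe sets, leaving out _x_at and _s_at probe sets, quantile normalization and leaving out each replicate. Members, lists and panel were chosen with earlier results of these data known. The genes to be named were all members, all MAP kinases, from each list the 3 brightest called genes plus the first 3 uncalled ones by alphabet, and those of a range of 1 or more. Genes of that set on which no result turned were left out, and *KRT3*, *KRT12*, *PAX6*, *JUN*, *ZFP36*, *JUNB*, *ETV4*, *ETV5*, *SPRY1*, *SPRY2*, *SPRY4*, *SPRED2*, *DUSP3*, *DUSP11*, *DUSP22*, *PTPRR* and *PTPRC* were named after their values were seen.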

Additional observations from a re-analysis of the deposited data

How the results depend on the processing

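The call of *DUSP5* held in all 11 alternatives and that of *DUSP1* in the 10 that measured it, since both its probe sets end in _x_at or _s_at. *DUSP8* and *DUSP9* were above background in none of the 11. With the panel median plus 3 scaled MADs as threshold, 2 of the 9 phosphatase genes (*DUSP1* and *DUSP5*), 2 of the 15 probe sets, 3465 of all genes and 36 of the 95 pathway genes were above background. This threshold was the highest of those tried, at 8.20, 7.88 and 7.75 in cultures 1, 2 and 3. With the highest panel value *DUSP7* was not above background, leaving 5 of 9, while 4563 of all 11963 genes were. With the mean over probe sets *DUSP6* and *DUSP7* were not, leaving 4 of 9, while 5826 of all genes were. With that mean, and with the scaled MADs, a smaller share of the phosphatase genes than of all genes was above background. With the main threshold their share was the larger one. Without _x_at and _s_at probe sets *DUSP10* was above background, its probe set being unchanged and the thresholds lower (6.47, 6.36 and 6.40). The 90th percentile, the olfactory panel, quantile normalization, limma and leaving out any 1 culture kept the 6 calls. The 90th percentile and the olfactory panel gave lower thresholds on each array, so they could not lose a call. Leaving out a culture could not change a call of these genes, which were above background on all arrays or on none. Leaving out culture 2 brought the SD of *DUSP1* to 0.0026, and that of *DUSP4* to 0.12. The 3 arrays limit what can be said of cultures, and readings under the threshold carry no order. No paired analysis was possible because all samples belong to 1 group.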
